A study of Drosophila melanogaster with 2 samples.

Results

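The genes Chro, pzg, row, BEAF-32, Dref and JIL-1 encode chromatin proteins of polytene interbands and of promoters that carry the DNA replication-related element (DRE). These 6 genes, out of 13968 protein-coding genes on the chromosome arms, were taken as a named list, and every peak that touched a gene body or the 2 kb on either side was described. The members were selected on their pooled peak signals in these same data, so the presence of a peak at a member is a description and carries no test. The data are ChIP-seq peak lists of CG4404, an uncharacterised protein, from whole Drosophila melanogaster embryos aged 0 to 4 hours. The embryos carried a transgene for CG4404 fused to eGFP, immunoprecipitated through the tag, and formed 1 group with 2 biological replicates and no other genotype or treatment. The samples are whole organisms of mixed cell types, so a peak cannot be tied to a cell type. Values from an input or an untagged line were not analysed here.

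Interbands are the open, light-staining regions of polytene chromosomes, where the promoters of many broadly expressed genes lie. Chro and the zinc-finger protein encoded by pzg (also called Z4) bind there together and help to place JIL-1, a kinase that phosphorylates histone H3 at a serine of its tail in interphase. The factor Dref binds the DRE of housekeeping and replication gene promoters, and pzg protein works with it there. BEAF-32 binds clusters of the word CGATA at domain boundaries and promoters, and the row protein is a partner of the heterochromatin protein relative HP1c.

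The authors deposited a larger and a conservative list of pooled peaks, and 1 list for each replicate. The peaks in them passed an irreproducible discovery rate (IDR) of 0.01. The IDR falls as a peak ranks higher, and more alike, in both calls compared. On the 7 arms these lists held 3835, 3687, 2957 (replicate 1) and 2479 (replicate 2) peaks. The signal printed for a peak is the caller's own score from column 7 of its list, whose unit neither the labels nor the headers state. For the strongest peak of each member, a rank or the share of a list with a higher signal is therefore printed as well. Most other signals stand without a rank. Ranked lists of candidates, from which the thresholded peaks were drawn, held 105976 peaks in replicate 1 and 116912 in replicate 2.

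All 6 genes had a thresholded peak in the larger pooled list, 10 peaks in all, against 4046 of 13968 protein-coding genes (29.0%) under the same rule. The list of genes was chosen for such peaks, and nothing is read from that contrast. JIL-1 had 4 peaks, BEAF-32 had 2, and Chro, pzg, row and Dref had 1 each. Every member had a summit within 500 bp of one of its own transcription start sites (TSSs), which held for 14.2% of protein-coding genes. Of the 10 summits, 8 lay that close to an own TSS, and the other 2 lay in introns of JIL-1. Among all 3835 pooled peaks, 38.8% had a summit that close to the TSS of a protein-coding gene. Those peaks were not limited to a gene and its flanks, as the member peaks were, so the shares rest on unlike sets. The member peak closest to the threshold from inside was the weaker one of BEAF-32, with a −log10 IDR of 2.17 between the replicates. The closest pooled candidate from outside lay upstream of row, with 1.46. In the pooled comparison from which the larger list was drawn, these had 2.38 and 1.25.

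**Figure D1:**
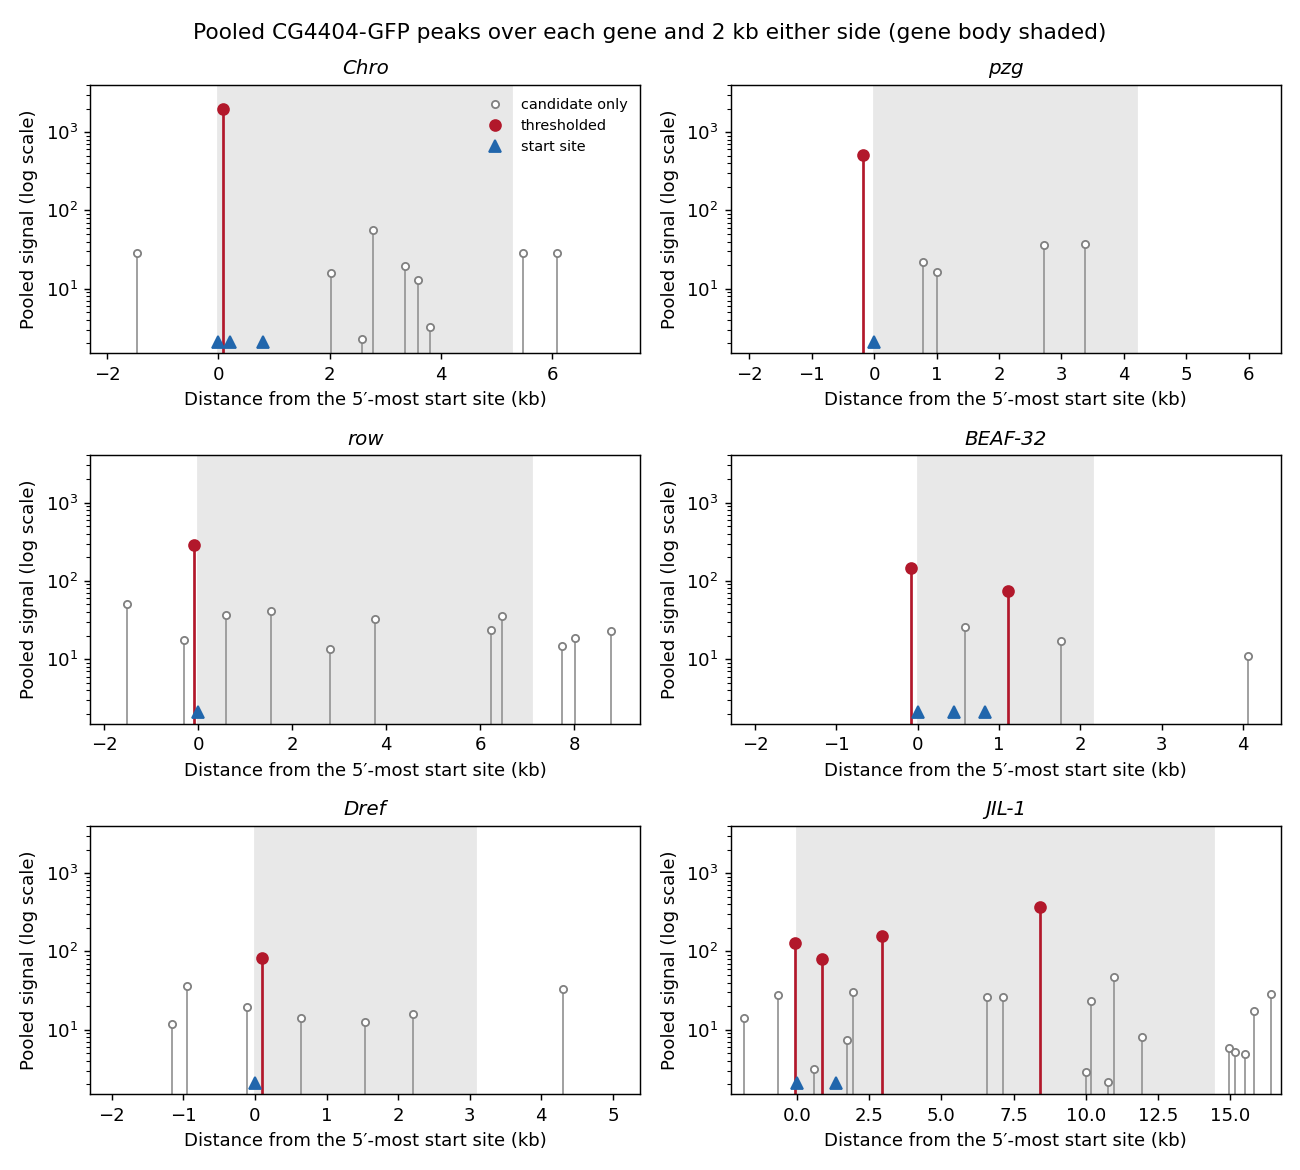
Pooled peaks over each of the 6 genes and 2 kb on either side, with the distance of the summit from the 5′-most start site (kb, in the direction of transcription) on the x axis and the deposited pooled signal on a log y axis. Red points are peaks of the larger thresholded list, open points are candidates that did not pass, shading is the gene body and triangles are annotated start sites. The strongest peak stands at the start of the gene in all panels except that of JIL-1, whose peak of signal 364.8 lies in an intron.

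In the pooled list and in the candidate list of each replicate, the strongest peaks of the members came in the order Chro, pzg, JIL-1, row, BEAF-32 and Dref. Pooled signals were 1952 for Chro, 509.3 for pzg, 364.8 for JIL-1, 288.3 for row, 144.1 for BEAF-32 and 81.4 for Dref. In replicate 1 the signals of the peaks at these places were 1035, 241.7, 202.5, 157.7, 106.6 and 49.3 in the same order. In replicate 2 they were 921, 269.6, 155.3, 126.8, 42.6 and 31.9, where the values of BEAF-32 and Dref belong to candidates that did not pass the threshold. The pool was made from these 2 replicates and the members were selected on pooled signals, so the shared order is a description only. By the share of the candidate list with a higher signal, neighbours in this order did not overlap. The closest were BEAF-32, with 0.973% in replicate 1 and 2.49% in replicate 2, and Dref, with 2.55% and 4.97%. The median pooled signal of all peaks was 117.5, so the strongest peak of Dref lay below it and those of the other 5 members above it.

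Chro had the strongest peak of the set. Chro (FBgn0044324, chr3L:22873702-22878984, minus strand) has 3 annotated TSS positions. Its single peak, chr3L:22878714-22879091, ranked 7 of 3835 in the pooled list, 8 of 2957 in replicate 1 and 7 of 2479 in replicate 2. The summit lay 80 bp downstream of the 5′-most TSS, in the 5′ UTR, and the summits of the replicates lay 8 bp to either side. The −log10 IDR was 5, the highest value the lists hold, in both pooled comparisons and in both replicates. The same summit lay 185 bp upstream of the TSS of Ssl1, which encodes a subunit of the general transcription factor TFIIH and is transcribed the other way, with 104 bp between the gene starts. The peak therefore cannot be given to Chro alone. Within 2 kb of the peak also lie slif, whose TSS was 2141 bp from the summit, and the antisense RNA gene asRNA:CR45970, whose TSS was 1495 bp from it. Between the replicates, the next below the threshold at this gene was a candidate in the gene body with a signal of 57.0. Its −log10 IDR was 1.14, against a threshold of 2. In the pooled comparison from which the larger list was drawn, its value was 0.12.

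The pzg promoter carried the second strongest peak. The gene (FBgn0259785, chr3L:21286099-21290310, plus strand) has 1 TSS position, and its peak at chr3L:21285681-21286084 ranked 202 in the pooled list. The peak ranked 259 of 2957 in replicate 1 and 154 of 2479 in replicate 2. The summit lay 182 bp upstream of pzg and 45 bp inside CG12974, in the 5′ UTR of that oppositely directed neighbour. The starts of pzg and CG12974 are 136 bp apart. Candidates inside pzg reached a signal of 36.9 and did not pass.

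Short stretches at the Chro and pzg summits are shown because a BEAF word (CGATA, both strands searched) lies almost at the summit in each. Sequences are from the RefSeq copy of the dm6 assembly, plus strand, 5′ to 3′, at chr3L:22878889-22878918 and chr3L:21285902-21285931, and capitals mark the BEAF word on either strand.
Chro summit: tgtCGATAgctttaaactaactgcagtcca
pzg summit: tcaagtaaataattacgtTATCGtaatgaa

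At Chro the centre of the word lay 10 bp from the pooled summit, 18 bp from that of replicate 1 and 2 bp from that of replicate 2. At pzg the distances were 5 bp, 7 bp and 6 bp. A BEAF word centred within 20 bp of the summit was present at 6.1% of all pooled peaks, 6.87% of replicate 1 peaks and 5.32% of replicate 2 peaks. Among the members it was present at 3 of 10 pooled peaks, those of Chro and pzg and the promoter peak of JIL-1. In the replicates it was present at 4 of 8 member peaks (replicate 1) and 3 of 7 (replicate 2). The limit of 20 bp was set after the distances at the members were seen, so nothing is read from these contrasts.

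JIL-1 was the only member with more than 2 peaks. It is the longest of the 6 genes (FBgn0020412, chr3L:11078752-11093193, minus strand, 14442 bp), and 0.924% of all protein-coding genes held 4 or more pooled peaks. Among the 1415 protein-coding genes at least as long, 7.49% did. The strongest JIL-1 peak lay in an intron at chr3L:11084685-11084886, with its summit 7069 bp downstream of the nearest own TSS. It had a pooled signal of 364.8 (rank 369), 202.5 in replicate 1 and 155.3 in replicate 2, each with a −log10 IDR of 5. The second intron peak, chr3L:11090052-11090435, had a pooled signal of 156.6 and passed in both replicates, with 95.3 in replicate 1. In replicate 2 it corresponded to a pair of thresholded peaks of nearly equal signal, the stronger at 54.0, whose summits at 11090026 and 11090290 fell on either side of the pooled summit at 11090244.

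The remaining JIL-1 peaks lay at its start sites and were weaker. The promoter peak, chr3L:11093083-11093466, had its summit 82 bp upstream of the 5′-most TSS, a pooled signal of 126.3 and 95.0 in replicate 1. In replicate 2 the overlapping candidate had a signal of 36.4 and a −log10 IDR of 0.09, below the threshold. The peak at chr3L:11092139-11092522 lay 475 bp upstream of the second TSS position, in the 5′ UTR of the longer transcripts. It had a pooled signal of 79.2 and passed in neither replicate alone, with 43.3 in replicate 1 and 36.8 in replicate 2. The upstream neighbours Iyd and CG46439, annotated over the same span and strand, end 177 bp short of the JIL-1 start, and the peaks at the JIL-1 start sites lie within 2 kb of them. Neither had a TSS within 500 bp of a JIL-1 summit, so the JIL-1 peaks touch no other protein-coding promoter.

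The JIL-1 sequences are shown because this promoter was the only one of the 10 peaks with a full DRE (TATCGATA) within 100 bp of the summit, and because the strongest intron peak held neither that word nor a BEAF word. The first stretch, chr3L:11093171-11093200, spans the TSS at 11093193. The second, chr3L:11093194-11093370, is the whole gap up to Iyd and CG46439, and the third is the intron peak chr3L:11084685-11084886. Capitals mark the DRE and BEAF words in the first, BEAF and GATA words (AGATAA or TGATAA) in the second, and GATA and GAGA words (GAGAG) in the third, on either strand.
JIL-1 start: gtagcTATCGtTATCGATAgtgttgacaag
JIL-1 upstream: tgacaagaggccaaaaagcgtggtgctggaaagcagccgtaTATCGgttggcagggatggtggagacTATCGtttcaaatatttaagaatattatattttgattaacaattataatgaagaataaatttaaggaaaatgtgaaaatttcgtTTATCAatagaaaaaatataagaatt
JIL-1 intron peak: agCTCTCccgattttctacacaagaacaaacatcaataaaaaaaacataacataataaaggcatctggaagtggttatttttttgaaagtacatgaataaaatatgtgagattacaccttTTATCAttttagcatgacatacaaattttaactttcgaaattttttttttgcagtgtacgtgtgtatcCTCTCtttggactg

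The JIL-1 DRE lay at 11093182 to 11093189, 4 to 11 bp downstream of the TSS. It was 90 bp from the pooled summit and 51 and 50 bp from the summits of replicates 1 and 2. A DRE lay within 100 bp of 2.22% of all pooled summits and of 7.83% of the annotated 5′ ends of protein-coding genes. The JIL-1 window held 5 BEAF words, 2 of them on opposite strands of the DRE itself, and 0.209% of pooled peaks held 5 or more. A BEAF word lay 1 bp and 2 bp from the summits of replicates 1 and 2. GATA words were present at all 4 JIL-1 peaks and at none of the other 6, against 26.3% of all pooled peaks and 22.5% of gene 5′ ends.

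Dref had the weakest strongest peak of the 6 genes. Dref (FBgn0015664, chr2L:9964147-9967229, minus strand) has 1 TSS position, and its peak at chr2L:9966939-9967322 ranked 2841 of 3835. The pooled summit lay 98 bp downstream of the TSS, in the 5′ UTR. The peak passed in replicate 1 with a signal of 49.3 and a −log10 IDR of 2.54. In replicate 2 the candidate had a signal of 31.9 and a −log10 IDR of 0.11, so it did not pass. The ribosomal protein gene RpL13 is transcribed the other way, with 83 bp between the gene starts, and its TSS lay 182 bp from the pooled summit. The summits of the replicates, at 9967232 and 9967235, fell 101 and 104 bp from the pooled one, in the gap between the genes. In the conservative list a second peak with a signal of 19.6 stood beside the first, overlapping it, with its summit at 9967340, 111 bp upstream of Dref.

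The gap chr2L:9967230-9967312 is shown because both replicate summits fall in it. Capitals mark the BEAF word.
Dref and RpL13 gap: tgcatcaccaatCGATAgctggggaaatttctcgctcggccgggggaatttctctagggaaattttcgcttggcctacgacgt

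The BEAF word of the gap lay 12 bp and 9 bp from the summits of replicates 1 and 2. The longest word shared by this gap and the Chro summit stretch on the plus strand was TCGATAGCT, which holds the BEAF word and was picked after the sequences were seen. It lay within 100 bp of 0.469% of pooled summits and of 1.47% of gene 5′ ends. No full DRE lay at the Dref peak, and the nearest within the gene and its flanks was 1409 bp from the pooled summit.

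The row gene had 1 peak just upstream of its start. The gene (FBgn0033998, chr2R:15206527-15213634, minus strand) has 1 TSS position, and the summit of the peak at chr2R:15213644-15213757 lay 92 bp upstream of it. The peak ranked 587 in the pooled list, 560 in replicate 1 and 652 in replicate 2, with a −log10 IDR of 5 in each replicate. No other protein-coding TSS lay within 500 bp. CG8093 lies upstream of row on the same strand, and its TSS was 1960 bp from the summit. The pooled peak was 114 bp wide, whereas the peaks of replicates 1 and 2 were 360 bp and 350 bp wide. In replicate 2 a second thresholded peak with a signal of 6.63 overlapped the first and carried the same −log10 IDR of 5. A candidate 1527 bp upstream of row, with a signal of 51.1 and a −log10 IDR of 1.46 between the replicates, was the nearest to the threshold without passing. A pair of BEAF words lay 83 and 89 bp from the pooled summit, just upstream of the TSS.

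BEAF-32 had a promoter peak and a weaker one inside the gene. The gene (FBgn0015602, chr2R:14770469-14772630, plus strand) has 3 TSS positions. The summit of the stronger peak, chr2R:14770191-14770574, lay 86 bp upstream of the first, and that of the weaker, chr2R:14771384-14771767, lay 275 bp downstream of the third, in a coding exon. The stronger peak had a pooled signal of 144.1 and passed in replicate 1 (106.6, −log10 IDR 4.73), while in replicate 2 its candidate had a signal of 42.6 and a −log10 IDR of 0.56. The weaker peak had a pooled signal of 74.2, with 35.1 in replicate 1 and 32.8 in replicate 2, and passed in neither. An antisense RNA gene, asRNA:CR42254, runs the other way across the BEAF-32 start, and each summit lay within 500 bp of a different one of its TSS positions, at 113 bp for the stronger peak and 281 bp for the weaker. The protein-coding neighbours Spred, and kn for the weaker peak, reached into the 2 kb rule without a TSS within 500 bp. Within 100 bp of the summit the weaker peak held 2 BEAF words and the stronger held none. Over the whole peak the weaker held 6 and the stronger 2. A DRE lay inside the stronger peak, 121 bp from its summit.

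**Figure D2:**
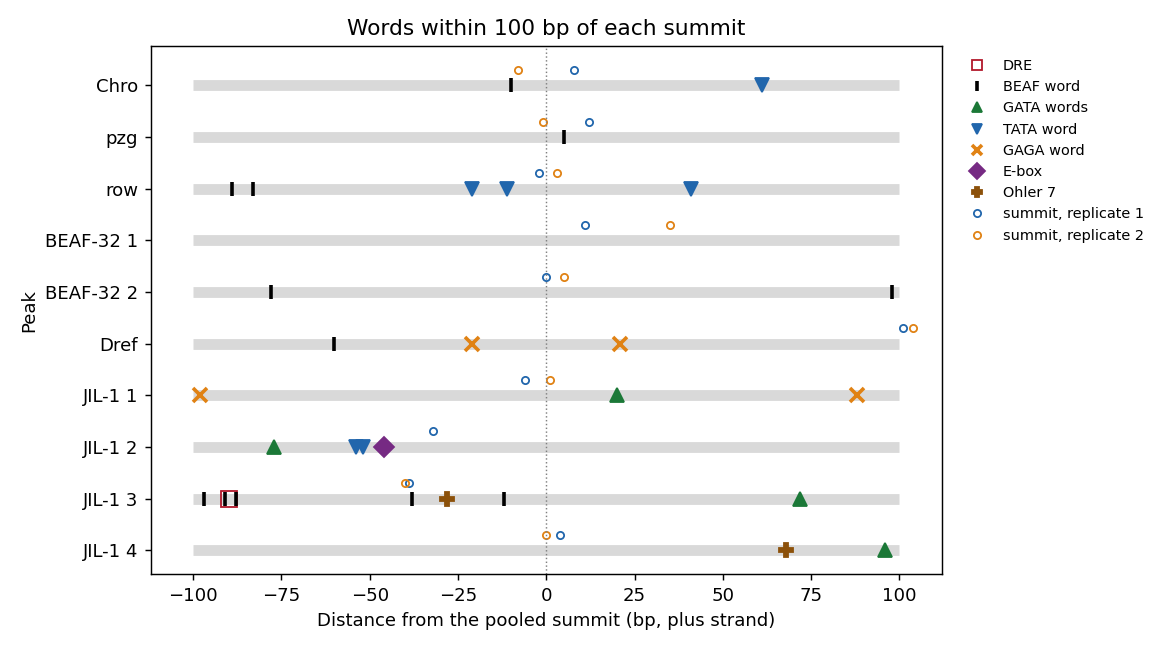
Positions of the searched words within 100 bp of the pooled summit of each peak, with the distance from that summit in bp (plus strand) on the x axis and 1 row per peak, numbered by falling signal within JIL-1 and BEAF-32. Open circles give the summits of the overlapping candidate peaks, and that of JIL-1 2 in replicate 2 lies outside the axis. The BEAF words of Chro and pzg lie within 10 bp of the pooled summit, and the DRE box appears at the JIL-1 promoter peak alone.

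Across the 10 peaks, the BEAF word was present in 6 windows of 100 bp either side of the summit, 1 for each of the 6 genes. For BEAF-32 this was the window of its weaker peak, and the called peak of row held 0 whole BEAF words. The BEAF word was present in the windows of 25.1% of all pooled peaks and of 39.3% of gene 5′ ends. The TATA word (TATAAA) was present at the peaks of Chro and row and at the second JIL-1 peak, 3 of 10, against 34.8% of pooled peaks and 29.2% of gene 5′ ends. The GAGA word was present at 2 of 10, against 21.7% and 22.5%, and the E-box (CAGCTG) at 1 of 10, against 8.21% and 13.8%. The element Ohler 7 was present at 2 peaks, both of JIL-1, against 7.54% and 10.4%, and Ohler 1 and Ohler 6 at 0. With 7 of the 8 letters of the DRE accepted, the peaks of Chro, row and Dref joined that of the JIL-1 promoter, 4 of 10, against 12.5% of pooled peaks. These matches describe letters and do not show that a protein binds them.

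All 10 pooled peaks were also in the conservative list and had a candidate in both replicates, but some did not pass in a replicate's own list. Of the 10, 5 overlapped a thresholded peak of both replicates, close to the share of all pooled peaks (53.2%). A further 3 overlapped one of replicate 1 only and 2 overlapped neither. The 5 were those of Chro, pzg and row and both JIL-1 intron peaks, and the 3 were the promoter peaks of BEAF-32, Dref and JIL-1. In the list of replicate 1, 6 of 6 members had a peak, against 25.0% of protein-coding genes, and in that of replicate 2, 4 of 6, against 20.9%. In the conservative list it was 6 of 6, against 28.0%. A summit within 500 bp of an own TSS was present for 6 members in replicate 1 and for 3 in replicate 2, those of Chro, pzg and row. The share of all protein-coding genes with such a summit was counted in the larger pooled list only (14.2%). The fall between the replicates is therefore not set against that of all genes.

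**Figure D3:**
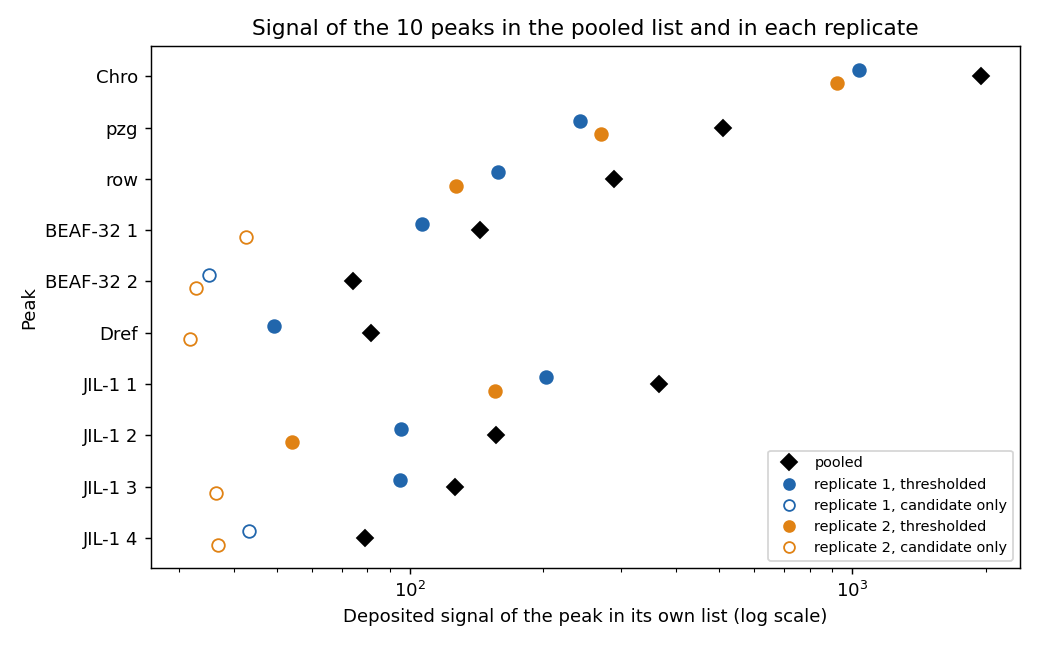
Deposited signal of each of the 10 peaks in the pooled list (diamonds) and of the overlapping peak of highest signal in the ranked list of replicate 1 (blue) and replicate 2 (orange), on a log x axis, with 1 row per peak. Open circles are candidates that did not pass the threshold, 2 in replicate 1 and 5 in replicate 2, and the values of different lists are on scales that may differ.

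Among the peaks, the promoter peaks of BEAF-32 and JIL-1 differed most between the replicates. The signal in replicate 1 divided by that in replicate 2 was 2.51 at the BEAF-32 promoter and 2.61 at the JIL-1 promoter. The median over the 3783 pooled peaks with a candidate in both replicates was 1.12, and 1.27% and 1.03% of these peaks had a higher ratio than BEAF-32 and JIL-1. The Chro peak, with 1.12, lay at the median, and pzg, with 0.897, was the only one of the 10 below 1. In the intron of JIL-1 the strongest peak had a ratio of 1.30, which 30.8% of peaks exceeded. With 1 value per replicate these ratios have no error of their own.

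**Figure D4:**
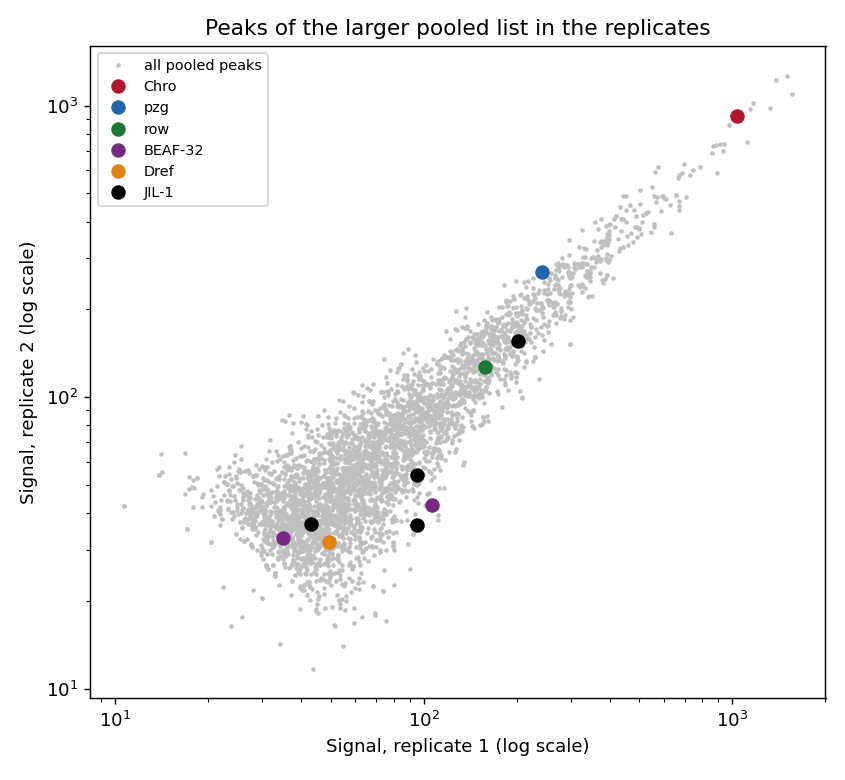
Signal in replicate 1 (x axis, log scale) and replicate 2 (y axis, log scale) of each peak of the larger pooled list, grey for all peaks and coloured for the members. The Chro peak lies at the upper end, at 1035 and 921, and the BEAF-32 and JIL-1 promoter peaks lie at the lower right edge of the cloud, at 106.6 and 42.6 and at 95.0 and 36.4.

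Promoters shared with a second protein-coding gene held 3 of the 10 peaks, those of Chro with Ssl1, pzg with CG12974 and Dref with RpL13. Of all pooled peaks, whether near a gene or not, 16.6% lay within 500 bp of the TSSs of 2 or more protein-coding genes. Outside the 2 kb flank the nearest pooled peak of row lay 3948 bp from the gene, with a signal of 1672, above that of row itself. At higher coordinates than Chro, the next pooled peak was 597110 bp from the gene. The other gaps from a member to its next pooled peak outside the flank lay between 3877 bp (JIL-1) and 17874 bp (BEAF-32).

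Genes of related function, listed with earlier results known, were counted under the same rule. Of 24 partners of the interband proteins 11 had a peak in the gene or its 2 kb flanks (45.8%), and 7 had a summit within 500 bp of an own TSS (29.2%). The strongest such peaks were at Rcd5 (233.0) and nsl1 (97.5), both of the NSL complex, at HP1b (142.7), a heterochromatin protein relative, and at Su(var)3-7 (123.4), a heterochromatin protein. Of 11 partners of Dref in the TRF2 and NURF complexes or at core promoters 4 had a peak (36.4%), and M1BP, a promoter-binding zinc-finger factor, had the only summit near a TSS (196.4). That share was below the background in the conservative list, with 2 of 11 (18.2%) against 28.0% of all protein-coding genes. In replicate 2 it was also below, with 2 of 11 against 20.9%. In replicate 1 it stayed above, with 4 of 11 (36.4%) against 25.0%. Of 19 genes reported as targets of Dref 8 had a peak (42.1%) and 3 a summit near a TSS, brm (960.9), mtSSB (171.3) and PolA2 (84.7). The share of targets with a peak was nearer the background in the other lists. It was 31.6% in the conservative list, against 28.0%, 26.3% in replicate 1, against 25.0%, and 26.3% in replicate 2, against 20.9%. Of 18 other genes listed as insulator proteins or factors linked to them, 10 had a peak (55.6%) and 7 a summit near a TSS. The strongest of these were at Cp190 (620), Trl (279.1), Cap-H2 (274.9) and lola (153.0). These shares stand beside 29.0% and 14.2% of all protein-coding genes and were not tested.

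Genes with the most similar pair of replicate signals at their strongest peak, compared over 3987 protein-coding genes and 2 samples by distance on the log2 scale, were taken for each member. For Chro they were Art3 and CG34316, which share a peak (976.6 in replicate 1 and 855.2 in replicate 2, distance 0.14), and for pzg KCNQ and mlt, which also share one (255.1 and 255.7, distance 0.11). For row they were Vha100-2 and Vti1b (156.8 and 126.5, distance 0.01), for BEAF-32 CG13994 and CG34180 (111.6 and 39.4, distance 0.13) and for Dref Atg101 and CG6961 (48.9 and 32.2, distance 0.02). For JIL-1 they were PRAS40 (200.7 and 154.7, distance 0.01) and CG4259 (201.5 and 153.3, distance 0.02). Several genes tied because they share a peak, and ties were taken in alphabetical order.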

How the data were processed

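Peak lists came from 2 biological replicates of 1 group. The lists are on dm6, per the file headers, and the authors deposited a ranked and a thresholded one for each replicate and for the pool. The aligner was, like the peak caller, not given in the sources used here. A deposited signal value is the caller's score, ranked within a list and set across lists only in the ratios between replicates and the search for similar genes. The deposited −log10 IDR comes from the ranked lists, and every thresholded peak on the arms had a value of 2 or more. Read depth was not used here, and the precision of the peak lists was not measured.

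Genes were from Ensembl release 115 and sequence from RefSeq, both of the dm6 assembly, and every peak ended within the arm lengths of that sequence. A peak belonged to a gene when it overlapped the body plus 2000 bp by at least 1 bp. Words were searched on both strands within 100 bp of the summit. No significance test was made. Alternatives were the other lists, an IDR of 0.001, other flanks, TSS distances and windows, and each replicate left out. The counting steps were tested on simulated data (Python 3.11.15, pandas 2.3.3). The members and gene lists were chosen with earlier results of these data known. Named genes were the members, the genes sharing their peaks, up to 4 genes per related list with the strongest peak near a TSS, and the 2 genes most similar to each member.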

Additional observations from a re-analysis of the deposited data

How the results depend on the processing

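All 7 alternatives for the number of members with a peak (4 to 6) and all 7 for the number of peaks (7 to 11) stayed within 1.5 times the values reported. With no flank, the members kept were 4 of 6, and the share of all genes was not counted with that setting. The number of members with a summit near an own TSS ranged from 3 to 6 with 1 replicate left out, the 3 without replicate 1. The share of all genes with such a summit was not counted with a replicate left out. The count of peaks with a DRE was 2 with the whole peak and 0 with 50 bp either side as the window. It was 4 with 7 of 8 letters accepted in the window reported, against 12.5% of all pooled peaks. The shares of all pooled peaks were not counted for the whole peak or the 50 bp window. The share of the list with a higher signal than the strongest peak was 0.163% for Chro, 41.1% for BEAF-32 and 76.5% for Dref in the conservative list. With 1 replicate left out it was 0.237% to 0.242% for Chro, 6.17% to 8.73% for pzg, 18.9% to 26.3% for row and 11.6% to 18.4% for JIL-1. Without replicate 2 it was 34.0% for BEAF-32 and 83.8% for Dref, and without replicate 1 neither had a value. Partners of Dref with a peak numbered 2 in the conservative list and 2 to 4 with 1 replicate left out. On the same replicate settings, targets of Dref numbered 5 and 5. Genes of the insulator list numbered 8 of 18 (44.4%) without replicate 2 and 6 of 18 (33.3%) without replicate 1. Interband partners numbered 12 of 24 (50%) and 7 of 24 (29.2%) in that order. Of all protein-coding genes, 25.0% had a peak without replicate 2 and 20.9% without replicate 1. The cause of these differences was not tested. No paired analysis was possible because there is a single group. Read depth was not used, so how depth limits the weak peaks, such as that of Dref, was not tested.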

Other observations

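The Raf gene, one of the listed targets of Dref and named after its values were seen, held 15 pooled peaks in its 48405 bp and flanks. They merged into 13 regions with signals from 12.3 to 616.3, and 3 protein-coding genes, Raf among them, held as many or more.

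The strongest pooled peaks mostly had a width other than 384 bp, and most of these were narrower than that. Of the pooled peaks with a signal of 202.0 or more, 80.9% had a width other than 384 bp, against 5.21% of those from 117.5 to 201.9 and 0.209% of those up to 80.4. The strongest peaks of Chro, pzg, JIL-1 and row, all above 202.0, were 378, 404, 202 and 114 bp wide, and the other 6 peaks were 384 bp wide.

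Some weak peaks passed the threshold beside a strong one. In replicate 2, 15 thresholded peaks (0.605%) overlapped a stronger one with the same IDR and a matched peak in common, and their median signal was 6.96 against 80.3 for the others. The second peak of row in that list was one of them.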
